A study of Saccharomyces cerevisiae with 4 samples.

Results

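The genes described here are 50 yeast genes: 49 that encode enzymes of amino acid synthesis, and GCN4, which encodes the transcription factor of the general amino acid control. They were chosen by their identifiers from 8 pathways, without the sulfur amino acids, by a rule that uses no measured value, although earlier results of these data were known when it was set, and all 50 were found among the 6673 genes listed for each library. Their mRNA was measured by RNA-seq in 2 libraries of a *PUF3Δ* strain and 2 libraries of the wild type (WT). *PUF3* encodes Puf3p, an RNA binding protein known for binding mRNAs of mitochondrial proteins and for promoting their decay. Both strains are haploid laboratory yeast, labelled BY4742 and MATa for WT (the methods of the study name BY4741), and, per the labels, share the alleles his3Δ1, leu2Δ0, met15Δ0 and ura3Δ0, with the *PUF3* deletion as the labelled difference. Overnight cultures in YPD, a glucose medium, were diluted to 0.01 OD in YPEG, which holds yeast extract and peptone and offers ethanol and glycerol for respiration, and grown to 1.0 OD before total RNA was extracted and mRNA was selected with oligo-dT beads. The number of independent deletion clones is not given in the sources used here.

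Yeast with all its pathways intact makes all the amino acids of its proteins. Both strains here are labelled his3Δ1 and leu2Δ0, and had 1 to 4 reads on LEU2 and on LYS2 in every library. Whether their histidine, leucine and lysine pathways ran to the products was not tested. In the general amino acid control, uncharged tRNA activates the kinase Gcn2p, which slows translation initiation and thereby allows the GCN4 mRNA to be translated past short open reading frames in its leader. Gcn4p then binds elements of the type TGACTC before many biosynthesis genes and activates them. GCN4 is regulated mainly at translation and at protein stability, so that its mRNA level is not a measure of Gcn4p. Separate pathways have regulators of their own, such as Leu3p for leucine, Lys14p for lysine and the Arg80p, Arg81p and Arg82p proteins for arginine.

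The values are RPKM, reads per length of the gene and per total of reads on the listed genes, from 6703910 and 8119223 reads in the *PUF3Δ* libraries and 7370059 and 8228693 reads in the WT libraries. *PUF3* had 0.11 and 0.28 RPKM in the *PUF3Δ* libraries, against 29.2 and 35.0 RPKM in WT, in accord with the labels. LEU2 and LYS2, which are steps of the leucine and lysine pathways, had 1 to 4 reads in every library, although the labels name no lys2 allele. MET17 (MET15) had 125 and 110.3 RPKM in *PUF3Δ* and 512 and 534 RPKM in WT, although the labels name met15Δ0. STE3, which is specific to α cells and shares 272 bases with another listed gene, had 116 and 118 RPKM in *PUF3Δ* and 279 and 225 RPKM in WT, and STE2, which is specific to a cells, had 4.6 and 4.75 RPKM in *PUF3Δ* and 15.4 and 13.5 RPKM in WT, although the labels name MATa. The strains were compared by limma on log2(RPKM + 1), with an adjusted p under 0.05 for a call, over the 5860 genes whose mean RPKM reached 1. A log2 fold change (log2FC) is *PUF3Δ* over WT on that scale and understates the change of genes with low RPKM. The median log2FC of all genes was -0.39 on the deposited scale and -0.01 with median-of-ratios scaling, -0.04 with quantile normalization and -0.05 with a correction for gene length. Longer genes had higher log2FC (Spearman rho 0.35 over the 5860 genes, a description across genes). Hence "rose" and "fell" are used here only of genes called in the same direction under all 4 scalings. With 2 libraries per strain, and no statement that they came from separate cultures, p-values measure only the spread between these libraries, which may be technical. Bulk RNA cannot tell a change per cell from a change in the share of cells that express a gene.

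All 50 genes passed the filter on low values, and the lowest count of reads behind a value was 52. Median RPKM over the 50 genes was 137 in *PUF3Δ* and 146 in WT, against 46.3 and 61.7 over all genes tested. On the deposited scale 17 of the 50 genes (34%) were called higher in *PUF3Δ*, against 18.9% of all genes tested, and 22 (44%) were called lower, against 54.2%. Under all 4 scalings, 17 genes rose (34%, against 16.9% of all genes) and 11 fell (22%, against 27.4%), while the other 22 had no common call. Each scaling alone called 26, 22 and 25 of the 50 genes higher (median-of-ratios, quantile and length, backgrounds of 33.9%, 31.9% and 30.1%) and 12, 14 and 13 lower (backgrounds of 33.2%, 34.2% and 34.3%). No gene called on the deposited scale was called in the opposite direction under any other setting tried. The *PUF3Δ* libraries were both above both WT libraries for 21 genes and both below them for 28 (backgrounds of 24.9% and 62.6%), and ARO3 was the only gene whose libraries overlapped. The median log2FC of the 50 genes was -0.16, which is 0.23 above the median of all genes, and 32 genes were above that median and 18 below it. Within the 50 genes, length and log2FC had a Spearman rho of 0.30 on the deposited scale and 0.13 after the length correction. Directions differed between the pathways, which are given in turn.

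**Figure D1:**
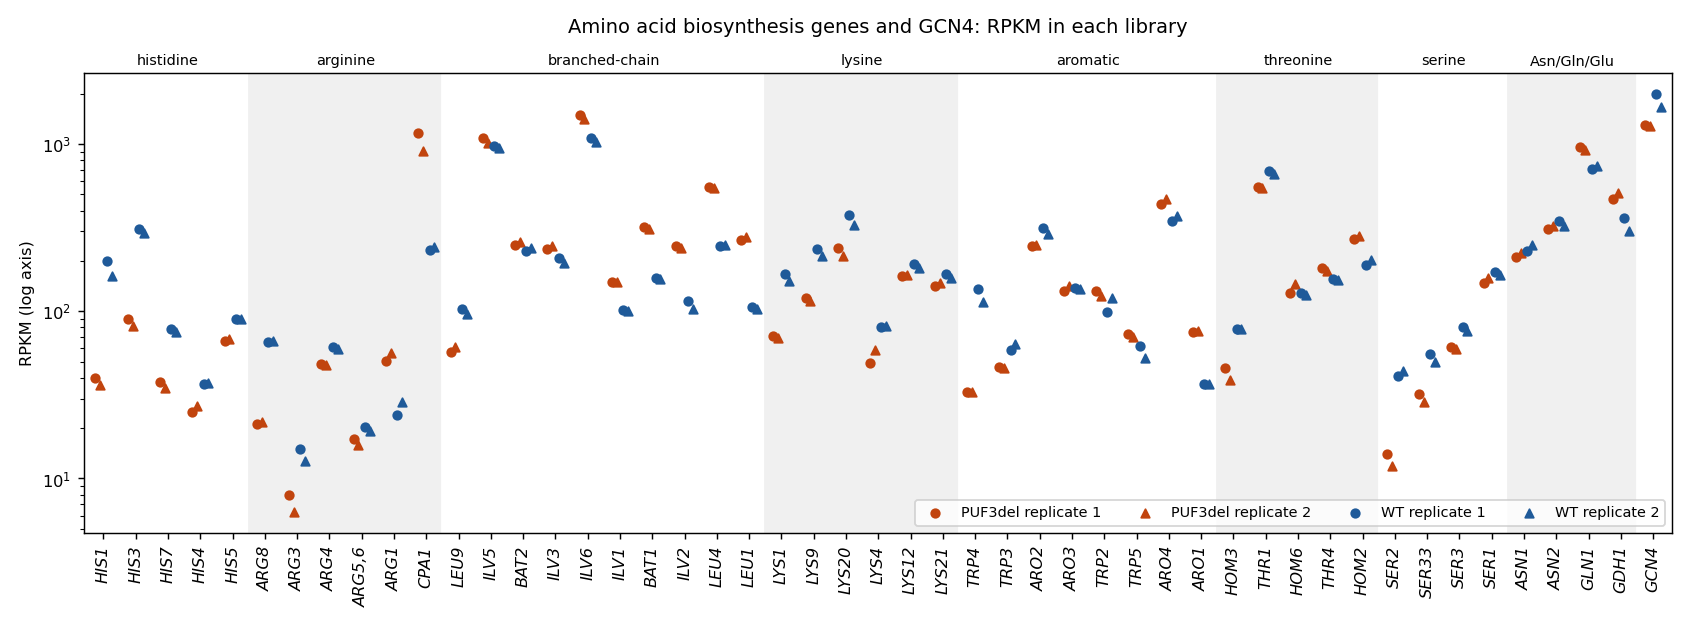
RPKM on a log axis of 49 of the 50 genes (x axis, by pathway) in the *PUF3Δ* libraries (PUF3del, orange) and the WT libraries (blue), with circles for replicate 1 and triangles for replicate 2. The 50 genes spanned 7.10 to 1458 RPKM in *PUF3Δ* and 13.9 to 1830 RPKM in WT on average, and replicates lay close to each other beside the distances between strains for genes such as HIS1, CPA1 and TRP4.

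The binding element of Gcn4p was common before these genes and did not go with a common direction. TGACTC, searched on both strands from 250 bases before to 50 bases after the start codon in the R64 genome, was present for 28 of the 50 genes (56%), against 7.98% of 6002 protein-coding genes. The longer form TGACTCA was present for 19 (38%), against 2.73%. CPA1, LEU1, ILV2 and ARG1, which rose with log2FC of 2.11, 1.38, 1.14 and 1.00, have no TGACTC in this window. The sites printed are those of 8 genes, the carriers with the largest changes in both directions. They are 24 bases of R64, written along the coding strand of the gene, with the element in capitals (GAGTCA is TGACTC on the other strand).
HIS1, chrV:265954-265977, 183 bases before the start codon: cttccaagtGAGTCAcctctaccg
HIS3, chrXV:721815-721838, 122 bases before: cctagcggaTGACTCttttttttt
ARG8, chrXV:58570-58593, 180 bases before: ctcgctatgTGACTCacttaaagt
TRP4, chrIV:1184573-1184596, 165 bases before: tacgcagatTGACTCtctaaaaaa
SER2, chrVII:911719-911742, 155 bases before: agaaagaaaGAGTCAatactaata
LEU4, chrXIV:426841-426864, 101 bases before: acgtgtaagTGACTCagttctttc
BAT1, chrVIII:517352-517375, 171 bases before: gccttcttaTGACTCaaaattcta
ARO1, chrIV:704252-704275, 223 bases before: tcatgcataTGACTCatcccgaac

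HIS1, HIS3, ARG8, TRP4 and SER2 fell, while LEU4, BAT1 and ARO1 rose. None of these 8 sites lies in another annotated gene. Of the 28 genes with TGACTC, 8 rose and 8 fell, and of the 22 genes without it, 9 rose and 3 fell. Over all genes tested, 16.9% rose and 27.4% fell. Among the 50 genes, median log2FC was -0.22 with the element and 0.06 without it. Over the 461 genes tested that carry it, the median was -0.25, which is above the -0.39 of all genes. The longer form TGACTCA did not show the difference between genes with and without it among the 50. Of its 19 carriers 6 rose and 4 fell, and the median log2FC was -0.13 with it and -0.16 without it. A match is a description of the letters and not a measurement of binding.

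GCN4 (YEL009C, chrV:138918-139763, minus strand) was the most abundant of the 50 mRNAs in WT. It had 1295 and 1279 RPKM in the *PUF3Δ* libraries, against 1999 and 1661 RPKM in the WT libraries, or 1287 ± 11.2 and 1830 ± 239 (SD, n = 2 each). Both *PUF3Δ* libraries were below both WT libraries, and the WT libraries differed more from each other than the *PUF3Δ* libraries did. This was not particular to GCN4. Chi-square per degree of freedom between replicates, a measure of spread beyond counting noise, was 11.7 in WT (5838 genes) and 4.6 in *PUF3Δ* (5726 genes). Its log2FC was -0.50 ± 0.10 (SE, limma adjusted p = 0.0035) on the deposited scale, -0.38 after quantile normalization (adjusted p = 0.006), -0.11 with median-of-ratios scaling (adjusted p = 0.37) and 0.05 after the length correction (adjusted p = 0.68). A lower GCN4 mRNA in *PUF3Δ* was thus called on the deposited and the quantile scale only.

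The histidine genes were the lowest pathway of the 8 relative to all genes. All 5 were called lower on the deposited scale, where 54.2% of all genes were called lower. Of the 5 genes, 3 fell under all 4 scalings (60%, against 27.4% of all genes). The summed RPKM of the 5 genes was 258 and 247 in *PUF3Δ*, against 715 and 657 in WT. HIS1 (YER055C), whose ATP phosphoribosyltransferase makes the first and feedback-inhibited step, had the lowest log2FC of the 50 genes. It had 39.8 and 36.3 RPKM in *PUF3Δ*, against 199 and 162 RPKM in WT, which is 4.74-fold lower (log2FC -2.21 ± 0.12, SE, limma adjusted p = 1.4e-05), and -1.68 after the length correction. HIS3 (imidazoleglycerol-phosphate dehydratase) had 89.4 and 81.2 RPKM in *PUF3Δ*, against 312 and 292 RPKM in WT, 3.54-fold lower (log2FC -1.81 ± 0.09, SE, limma adjusted p = 1.1e-05). Both strains are labelled his3Δ1, a partial deletion of this gene, which was not tested here, and 44 bases of HIS3 overlap the listed gene YOR203W. HIS7, the imidazole glycerol phosphate synthase, had 37.8 and 34.6 RPKM in *PUF3Δ*, against 78.4 and 75.5 RPKM in WT, and fell with a log2FC of -1.07 ± 0.09 (SE, limma adjusted p = 6.4e-05). For these 3 genes the libraries of the strains were well apart. HIS4, whose protein carries out several steps, had 24.9 and 27.1 RPKM in *PUF3Δ*, against 36.6 and 37.2 RPKM in WT, and its log2FC was -0.49 on the deposited scale and -0.46 after the length correction (adjusted p = 0.0053), but -0.11 with median-of-ratios scaling and -0.02 with quantile normalization. HIS5, the aminotransferase, had 66.2 and 67.8 RPKM against 89.7 and 89.8 RPKM, and its log2FC was between -0.42 and 0.01 over the scalings. All 5 genes carry TGACTC, those that fell and those with no common call. The median log2FC of the pathway was 0.68 below that of all genes on the deposited scale, and between 0.63 and 0.77 below it under the other scalings.

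The arginine genes split by step. CPA1 and ARG1 were among the genes that rose, ARG8 of the mitochondrial ornithine branch fell, and ARG3, ARG4 and ARG5,6 had no common call. CPA1 (YOR303W, chrXV:882899-884134), the small subunit of the arginine-specific carbamoyl phosphate synthetase, had the highest log2FC of the 50 genes. It had 1164 and 909 RPKM in *PUF3Δ*, against 234 and 241 RPKM in WT, which is 4.36-fold higher (log2FC 2.11 ± 0.12, SE, limma adjusted p = 1.6e-05). The leader of the CPA1 mRNA holds a short open reading frame for the arginine attenuator peptide, which is known to stall ribosomes when arginine is plentiful and to expose the mRNA to decay. This frame is listed as a gene of its own, YOR302W (chrXV:882765-882842), which was looked up after the value of CPA1 was seen. YOR302W had 1820 and 1603 RPKM in *PUF3Δ*, against 122 and 217 RPKM in WT, from 964 and 1028 reads and from 71 and 141 reads, so that leader and coding region were both higher in *PUF3Δ* (log2FC of the leader frame 3.38 ± 0.24, SE, limma adjusted p = 3.0e-05).

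ARG1, the argininosuccinate synthase, had 50.6 and 56.1 RPKM in *PUF3Δ*, against 23.8 and 28.6 RPKM in WT, and rose 2.04-fold (log2FC 1.00 ± 0.12, SE, limma adjusted p = 0.00026). ARG4, the argininosuccinate lyase of the next step, had 48.2 and 47.7 RPKM in *PUF3Δ*, against 61.5 and 59.8 RPKM in WT, and its log2FC was -0.33 on the deposited scale and 0.01 to 0.07 under the other scalings. Neighbouring steps thus differed, with ARG1 higher and ARG4 near the shift of all genes. ARG8, the acetylornithine aminotransferase of mitochondria, had 21.2 and 21.7 RPKM in *PUF3Δ*, against 65.3 and 66.2 RPKM in WT, and fell 3.07-fold (log2FC -1.57 ± 0.09, SE, limma adjusted p = 1.8e-05). ARG5,6, which encodes both the acetylglutamate kinase and the reductase of that branch, had 17.2 and 15.9 RPKM in *PUF3Δ*, against 20.4 and 19.3 RPKM in WT (log2FC -0.25 ± 0.12, SE, limma adjusted p = 0.099), and shares 323 bases with another listed gene. ARG3, the ornithine carbamoyltransferase, was the least abundant of the 50 mRNAs, with 7.91 and 6.29 RPKM in *PUF3Δ* and 14.9 and 12.8 RPKM in WT, and its call on the deposited scale (log2FC -0.88) was lost after quantile normalization (adjusted p = 0.087) and the length correction (adjusted p = 0.084). Summed RPKM of the pathway was 1387 and 1126 in *PUF3Δ*, against 442 and 452 in WT, a difference set mostly by CPA1. The median log2FC of its 7 genes was only 0.14 above that of all genes.

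The branched-chain genes had the highest median, 0.90 above that of all genes on the deposited scale and 0.72 to 0.93 above it under the other scalings. Of the 10 genes 7 rose (70%, against 16.9% of all genes), LEU9 fell (10%, against 27.4%), and ILV5 and BAT2 had no common call. Their summed RPKM was 4664 and 4517 in *PUF3Δ*, against 3335 and 3211 in WT. In the leucine branch, LEU1 (YGL009C), the isopropylmalate isomerase, had 268 and 278 RPKM in *PUF3Δ*, against 106 and 103 RPKM in WT, and rose 2.62-fold (log2FC 1.38 ± 0.08, SE, limma adjusted p = 1.5e-05). LEU4, the main isopropylmalate synthase, had 552 and 549 RPKM in *PUF3Δ*, against 246 and 248 RPKM in WT, and rose 2.23-fold (log2FC 1.15 ± 0.07, SE, limma adjusted p = 2.1e-05). LEU9, the second isopropylmalate synthase, had 57.3 and 61.4 RPKM in *PUF3Δ*, against 104 and 95.7 RPKM in WT, and fell 1.68-fold (log2FC -0.74 ± 0.09, SE, limma adjusted p = 0.00029). Both genes of the synthase thus moved in opposite directions under all 4 scalings. LEU4 and LEU9 share 36 and 210 bases with other listed genes.

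In the part shared by isoleucine and valine, ILV2, the catalytic subunit of acetolactate synthase, had 244 and 237 RPKM in *PUF3Δ*, against 115 and 104 RPKM in WT, and rose 2.21-fold (log2FC 1.14 ± 0.08, SE, limma adjusted p = 3.6e-05). ILV6, its regulatory subunit, was more abundant, with 1498 and 1418 RPKM in *PUF3Δ* and 1085 and 1033 RPKM in WT, and rose 1.38-fold (log2FC 0.46 ± 0.08, SE, limma adjusted p = 0.0014). Both subunits rose, by unequal amounts. ILV1, the threonine deaminase that starts isoleucine synthesis, rose 1.48-fold, and ILV3, the dihydroxyacid dehydratase, rose 1.19-fold with a call that was lost without *PUF3Δ* replicate 1 (adjusted p = 0.0897), *PUF3Δ* replicate 2 (0.155) or WT replicate 2 (0.0549). ILV5, the reductoisomerase, had 1089.7 and 1009 RPKM in *PUF3Δ*, against 980.4 and 941 RPKM in WT (log2FC 0.13 ± 0.08, SE, limma adjusted p = 0.19), and was called higher under the other 3 scalings. BAT1, the mitochondrial branched-chain aminotransferase, had 320.4 and 311 RPKM in *PUF3Δ*, against 159 and 156 RPKM in WT, and rose 2.00-fold (log2FC 1.00 ± 0.07, SE, limma adjusted p = 3.5e-05). BAT2, the cytosolic aminotransferase, had 251 and 261 RPKM in *PUF3Δ*, against 230.5 and 238 RPKM in WT. Its log2FC was 0.13 with no call on the deposited scale, and it was called higher under the other 3 scalings (log2FC 0.25 to 0.57).

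Leu3p binds elements made of CCG and CGG with 4 bases of any kind between them. This spaced palindrome was found on either strand in the same window for LEU1, BAT1 and HOM6, 3 of the 50 genes (6%), against 1.45% of all genes. The match of HOM6, which had no common call, lies within its own coding region, 25 bases after the start codon begins. Over the 83 genes tested that carry the element the median log2FC was -0.37, against -0.39 for all genes. The sites before LEU1 and BAT1, the carriers that rose, are 28 bases of R64 on the coding strand with the element in capitals.
LEU1, chrVII:478851-478878, 217 bases before the start codon: acgaaaattCCGGGACCGGcgaaatttg
LEU1, chrVII:478821-478848, 187 bases before: cggttttgtCCGTAACCGGcttcatgag
BAT1, chrVIII:517376-517403, 147 bases before: ttgtgtttgCCGGTACCGGcctttaagc

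The mRNA of LEU3 itself fell, with 31.4 and 32.5 RPKM in *PUF3Δ*, against 64.5 and 70.3 RPKM in WT (log2FC -1.05 ± 0.09, SE, limma adjusted p = 7.1e-05).

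**Figure D2:**
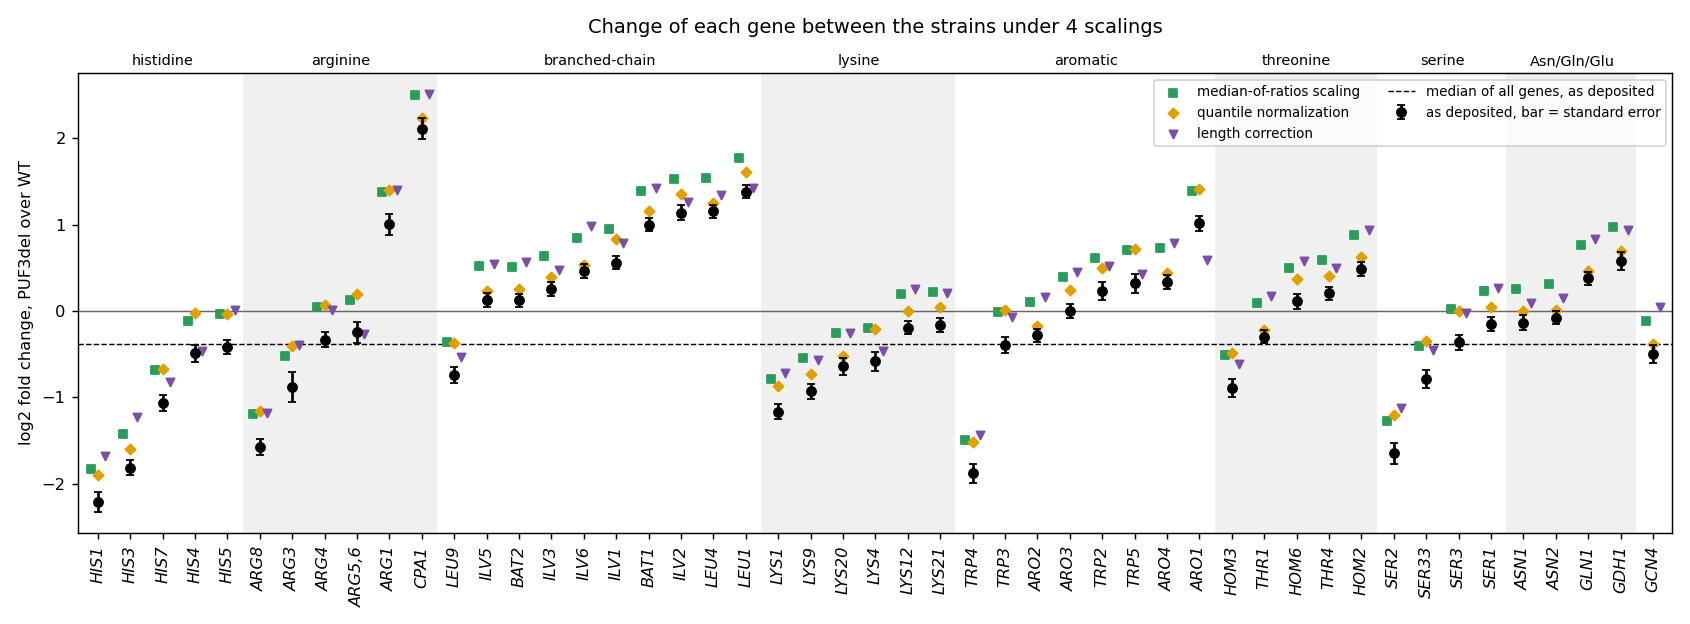
Log2 fold change of 49 of the 50 genes (y axis), *PUF3Δ* (PUF3del) over WT, by pathway, on the deposited scale (black, bar = standard error) and with median-of-ratios scaling, quantile normalization and the length correction. The dashed line is the median of all genes as deposited, -0.39; CPA1 at 2.11 and HIS1 at -2.21 are the ends of the range, and genes between the dashed line and 0 change sign with the scaling.

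Of the 6 lysine genes 2 fell (33.3%, against 27.4% of all genes) and none rose (against 16.9%). Both genes that fell encode saccharopine dehydrogenases, of the last steps. LYS1 had 71.3 and 68.9 RPKM in *PUF3Δ*, against 167 and 151 RPKM in WT, and fell 2.27-fold (log2FC -1.17 ± 0.09, SE, limma adjusted p = 3.6e-05). LYS9 had 120.3 and 115 RPKM in *PUF3Δ*, against 236 and 215 RPKM in WT, and fell 1.92-fold (log2FC -0.93 ± 0.08, SE, limma adjusted p = 7.1e-05). The earlier steps lay closer to all genes. LYS20, a homocitrate synthase, had 238 and 214 RPKM in *PUF3Δ*, against 378 and 329 RPKM in WT. It was called lower on the deposited scale (log2FC -0.64, limma adjusted p = 0.00087) and with quantile normalization (-0.52, limma adjusted p = 0.0023). It had no call with median-of-ratios scaling (-0.25, limma adjusted p = 0.066) or the length correction (-0.26, limma adjusted p = 0.053). LYS21, the other homocitrate synthase, had 143 and 148 RPKM in *PUF3Δ*, against 168 and 158 RPKM in WT. Its log2FC was -0.16 on the deposited scale and 0.04 to 0.22 under the others. LYS21 was called higher with median-of-ratios scaling (limma adjusted p = 0.038) and the length correction (limma adjusted p = 0.046). LYS4 (homoaconitase) had log2FC between -0.58 and -0.20, and LYS12 (homoisocitrate dehydrogenase) between -0.19 and 0.26. LYS4 was called lower on the deposited scale and after the length correction, and LYS12 was called higher after the length correction only. Summed RPKM of the pathway was 783 and 769 in *PUF3Δ*, against 1221 and 1116 in WT. Both strains had only 1 to 4 reads on LYS2, which acts between LYS12 and LYS9.

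The letters TCCNNNGGA, the core of the element known for Lys14p, were searched after the values of the lysine genes were seen. They were found in the window before the start codon for LEU9, LYS1, LYS9 and LYS12, 4 of the 50 genes (8%), against 3.40% of all genes. Of these 4 genes 3 fell, where 27.4% of all genes tested fell. Over the 196 genes tested that carry these letters the median log2FC was -0.46, against -0.39 for all genes. LYS12 carries these letters and did not fall, and LYS4, LYS20 and LYS21 do not carry them. The sites before LYS1 and LYS9, printed because these lysine genes fell, are 27 bases of R64 on the coding strand, with the element in capitals.
LYS1, chrIX:420915-420941, 196 bases before the start codon: tttttttttTCCAGCGGAatttggaat
LYS9, chrXIV:715596-715622, 225 bases before: aatcgaaatTCCGTTGGAaaaattcgc
LYS9, chrXIV:715534-715560, 163 bases before: ttgagaattTCCAATGGAattatcagc

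The mRNA of LYS14 had 39.1 and 43.3 RPKM in *PUF3Δ*, against 48.4 and 56.1 RPKM in WT, with a log2FC of -0.33 on the deposited scale and -0.30 after the length correction (adjusted p = 0.031), but 0.05 with median-of-ratios scaling and 0.08 with quantile normalization.

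In the aromatic pathway 3 of 8 genes rose (37.5%, against 16.9% of all genes), TRP4 fell (12.5%, against 27.4%) and 4 had no common call. In the common branch to chorismate, ARO1, whose protein carries out most of the steps, had 74.8 and 75.9 RPKM in *PUF3Δ*, against 36.7 and 36.9 RPKM in WT, and rose 2.05-fold (log2FC 1.01 ± 0.09, SE, limma adjusted p = 5.7e-05), with a log2FC of 0.59 after the length correction. ARO4, the tyrosine-inhibited synthase of the entry step, had 439.6 and 469 RPKM in *PUF3Δ*, against 347 and 373 RPKM in WT, and rose 1.26-fold, a call that was lost without *PUF3Δ* replicate 2 (adjusted p = 0.079). ARO3, the phenylalanine-inhibited synthase of the same step, had 132 and 142 RPKM in *PUF3Δ* and 138 and 136 RPKM in WT. It had no call on the deposited scale and was called higher under each of the other scalings (log2FC 0.24 to 0.45). ARO2, the chorismate synthase, had log2FC between -0.28 and 0.16. In the tryptophan branch, TRP4, the anthranilate phosphoribosyltransferase, had 33.1 and 33.1 RPKM in *PUF3Δ*, against 136 and 113 RPKM in WT, and fell 3.77-fold (log2FC -1.88 ± 0.11, SE, limma adjusted p = 1.8e-05). TRP4 shares 144 bases with another listed gene. The steps on either side of TRP4 did not fall. TRP2, the anthranilate synthase, which shares 90 bases with another listed gene, had 131 and 124 RPKM in *PUF3Δ* and 99.4 and 119 RPKM in WT. TRP2 had no call on the deposited scale and was called higher under each of the other scalings (log2FC 0.50 to 0.61). TRP3 had log2FC between -0.39 and 0.01 and was called lower on the deposited scale only (limma adjusted p = 0.0067). TRP5, the tryptophan synthase, had 73.6 and 69.9 RPKM in *PUF3Δ* and 62.3 and 52.7 RPKM in WT. TRP5 was called higher under all 4 scalings, but its call was lost without *PUF3Δ* replicate 1 (adjusted p = 0.16), *PUF3Δ* replicate 2 (0.0892) or WT replicate 2 (0.0865), and without the filter on low values (0.093).

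For the threonine pathway, HOM3, the aspartate kinase of its entry step, fell, with 45.5 and 38.6 RPKM in *PUF3Δ*, against 78.7 and 78.3 RPKM in WT (1.86-fold lower, log2FC -0.89 ± 0.11, SE, limma adjusted p = 0.00024). The next step, HOM2 (aspartate semialdehyde dehydrogenase), rose 1.40-fold, with 270.1 and 281 RPKM in *PUF3Δ*, against 189 and 204 RPKM in WT (log2FC 0.49 ± 0.08, SE, limma adjusted p = 0.0012). HOM6, the homoserine dehydrogenase, had 129 and 145 RPKM in *PUF3Δ* and 128 and 125 RPKM in WT. It had no call on the deposited scale and was called higher under each of the other scalings (log2FC 0.36 to 0.57). THR1, the homoserine kinase, had log2FC between -0.30 and 0.17. THR4, the threonine synthase, rose 1.15-fold, a call lost when any 1 of the 4 libraries was left out and with a replicate block (adjusted p between 0.051 and 0.235). Opposite changes thus stood at successive steps of this pathway, while its summed RPKM was 1178 and 1188 in *PUF3Δ* and 1242 and 1221 in WT.

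In serine synthesis, SER2, the phosphoserine phosphatase of the last step, fell 3.28-fold, with 13.9 and 11.9 RPKM in *PUF3Δ*, against 41.1 and 43.7 RPKM in WT, from 87 and 90 reads and from 282 and 335 reads (log2FC -1.64 ± 0.12, SE, limma adjusted p = 3.5e-05). SER33, a phosphoglycerate dehydrogenase, fell 1.75-fold, with 31.9 and 28.6 RPKM in *PUF3Δ*, against 55.9 and 50.04 RPKM in WT (log2FC -0.79 ± 0.11, SE, limma adjusted p = 0.0005). The dehydrogenase SER3 had 61.5 and 59.4 RPKM in *PUF3Δ* and 80.4 and 75.8 RPKM in WT, and SER1, the aminotransferase, had 147 and 157 RPKM in *PUF3Δ* and 173 and 165 RPKM in WT. SER3 had log2FC between -0.36 and 0.02 and SER1 between -0.15 and 0.27 over the scalings. No serine gene was called higher on the deposited scale, and SER1 was called higher under 2 of the other scalings.

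Among the genes of ammonium assimilation, GDH1, the NADP-dependent glutamate dehydrogenase, rose 1.49-fold, with 472 and 513 RPKM in *PUF3Δ*, against 359 and 301 RPKM in WT (log2FC 0.58 ± 0.10, SE, limma adjusted p = 0.0018). GLN1, the glutamine synthetase, rose 1.30-fold, with 963 and 917 RPKM in *PUF3Δ*, against 709 and 735 RPKM in WT (log2FC 0.38 ± 0.08, SE, limma adjusted p = 0.003). The asparagine synthetases did not pass on the deposited scale: ASN1 had 209.8 and 225 RPKM in *PUF3Δ* and 229 and 248 RPKM in WT, and ASN2 had 311 and 322 RPKM in *PUF3Δ* and 344 and 325 RPKM in WT. Both ASN genes were called higher after median-of-ratios scaling (log2FC 0.25 and 0.31).

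**Figure D3:**
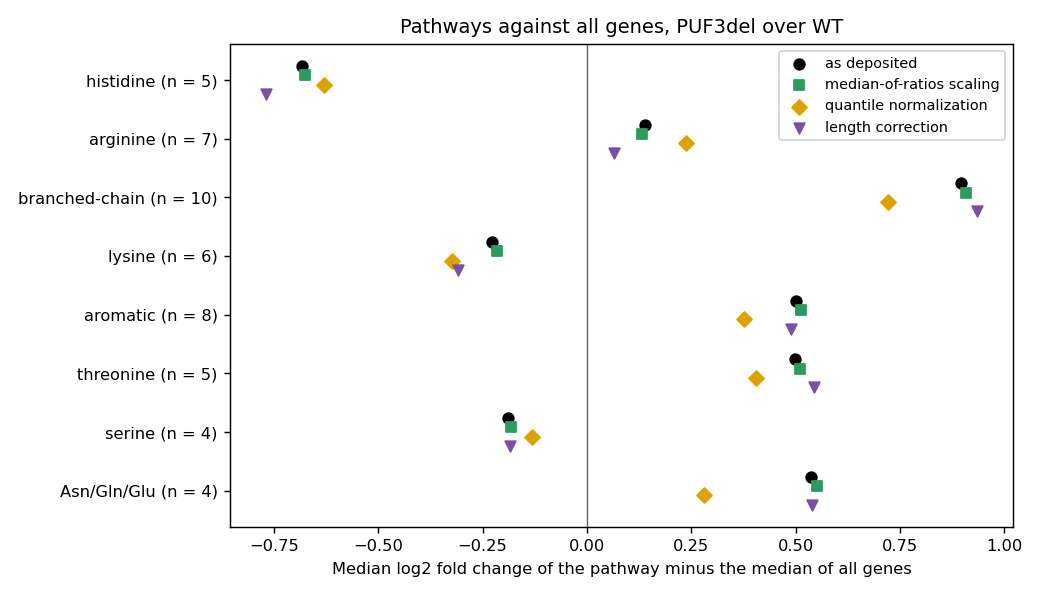
Median log2 fold change of each pathway, *PUF3Δ* (PUF3del) over WT, minus the median of all genes (x axis), under 4 scalings, with the number of genes in brackets. Histidine (-0.68 as deposited), lysine (-0.23) and serine (-0.19) were below all genes and branched-chain (0.90), Asn/Gln/Glu (0.54), aromatic (0.50), threonine (0.50) and arginine (0.14) above, with the same sign under all 4 scalings.

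The order of the pathways was thus kept at its ends, with the branched-chain genes highest and the histidine genes lowest under each scaling. These medians rest on 4 to 10 genes, and no test of 1 pathway against another was made.

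The 50 genes include 6 pairs of paralogous enzymes, whose ratio within a library does not depend on a factor applied to that library, apart from the pseudocount. The log2 ratio of LEU4 to LEU9 was 3.25 and 3.14 in the *PUF3Δ* libraries and 1.24 and 1.37 in the WT libraries, a difference of 1.89, the largest of the 6. BAT1 was above BAT2 in *PUF3Δ* (0.35 and 0.26) and below it in WT (-0.53 and -0.60), a difference of 0.87. LEU4 and BAT1, which gained on their partners, are the genes with TGACTC in their pairs. The ratio of SER3 to SER33 was also higher in *PUF3Δ* (0.93 and 1.03) than in WT (0.52 and 0.59), by 0.42, although SER33 is the gene with TGACTC in that pair. LYS20 to LYS21 had 0.74 and 0.53 in *PUF3Δ* and 1.17 and 1.05 in WT, a difference of -0.48. ARO3 to ARO4 had -1.73 and -1.72 in *PUF3Δ* and -1.33 and -1.45 in WT, a difference of -0.33. Only the ratio of ASN1 to ASN2 overlapped between the strains, with -0.56 and -0.52 in *PUF3Δ* and -0.58 and -0.39 in WT. An exact two-sided permutation test over libraries gave p = 0.33 for each of the 5 separated pairs, the smallest value that 2 libraries against 2 allow, p = 1 for ASN1 and ASN2, and adjusted values of 0.4 and 1 over the 6 pairs. Reads that fit both genes of a pair may have been split between them, and how such reads were treated is not given in the sources used here. The coding sequences were identical at 66.3% of aligned bases for ARO3 and ARO4, 71.7% for BAT1 and BAT2, 79.3% for LEU4 and LEU9, 81.2% for ASN1 and ASN2, 82.4% for SER3 and SER33 and 91.4% for LYS20 and LYS21. The longest identical run was 278 bases for LYS20 and LYS21 and 17 to 83 bases for the other pairs, so that LYS20 and LYS21 are the pair most open to shared reads.

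**Figure D4:**
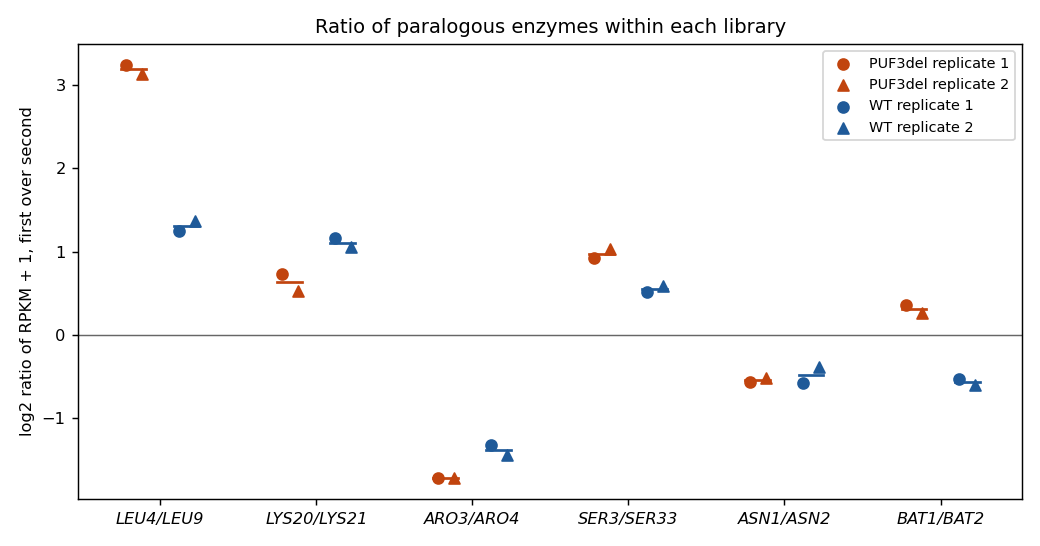
Log2 ratio of RPKM + 1 of the first over the second gene of each paralog pair (y axis), in the *PUF3Δ* libraries (PUF3del, orange, left) and the WT libraries (blue, right), with the mean as a bar. LEU4/LEU9 lay at 3.14 to 3.25 in *PUF3Δ* and at 1.24 to 1.37 in WT, and BAT1/BAT2 crossed 0.

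The type of element known for Puf3p binding, TGTANATA, was present within 200 bases after the stop codon of 7 of the 50 genes (14%), against 14.1% of all genes. These were HIS3, HIS4, ARG1, ARG4, BAT2, ASN1 and ASN2, of which ARG1 rose, HIS3 fell and 5 had no common call. Over all genes tested, 16.9% rose and 27.4% fell. Among the 50 genes, median log2FC was -0.13 with the element and -0.16 without it. Over the 822 genes tested that carry it, the median was -0.22, against -0.39 for all genes. The sites of HIS3 and ARG1 are printed because these genes moved in opposite directions; they are 26 bases of R64 on the coding strand, with the element in capitals.
ARG1, chrXV:220537-220562, 73 bases after the stop codon: ctcttgtgaTGTAAATAcatatgtag
HIS3, chrXV:722644-722669, 45 bases after: atatacatgTGTATATAtgtatacct

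Other genes around these pathways were also looked at. Of 24 further biosynthesis enzymes 22 could be tested (LEU2 and LYS2 were under the filter), and 6 rose (27.3%) and 7 fell (31.8%), beside 16.9% and 27.4% of all genes. GDH3, an isoenzyme of GDH1, had the highest log2FC, with 210.4 and 209.8 RPKM in *PUF3Δ*, against 34.8 and 38.1 RPKM in WT (log2FC 2.50 ± 0.09, SE, limma adjusted p = 5.9e-06). The lowest was ARO7, the chorismate mutase, with 23.6 and 24.4 RPKM in *PUF3Δ*, against 93.0 and 79.7 RPKM in WT (log2FC -1.80 ± 0.11, SE, limma adjusted p = 1.9e-05). PHA2 and TYR1, which follow ARO7 towards phenylalanine and tyrosine, also fell (log2FC -1.57 and -0.76), and they were looked up after the value of ARO7 was seen. HIS6, a further histidine step, fell with a log2FC of -1.34, while HIS2 had -0.39, the value of the median gene.

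Of 14 genes that control GCN4 translation or Gcn4p stability, 2 rose and 2 fell (14.3% each, against 16.9% and 27.4% of all genes). GCN3, the regulatory subunit of the initiation factor eIF2B, had 72.7 and 71.6 RPKM in *PUF3Δ*, against 191 and 192 RPKM in WT (log2FC -1.40 ± 0.08, SE, limma adjusted p = 1.5e-05). PCL5, the cyclin that directs Gcn4p to degradation and is itself a target of Gcn4p, had 248 and 253 RPKM in *PUF3Δ*, against 209.7 and 186 RPKM in WT (log2FC 0.34 ± 0.09, SE, limma adjusted p = 0.0094). The kinase gene GCN2 had log2FC between -0.39 and 0.49 over the scalings, with calls in opposite directions. GCN2 was called higher with median-of-ratios scaling (limma adjusted p = 0.013) and quantile normalization (limma adjusted p = 0.0078). It was called lower after the length correction (limma adjusted p = 0.024) and had no call on the deposited scale. Of 12 regulators of single pathways or of nitrogen use, 1 rose (8.33%, against 16.9%) and 4 fell (33.3%, against 27.4%). The gene that rose, DAL80, had 9.56 and 11.2 RPKM in *PUF3Δ*, against 8.20 and 5.54 RPKM in WT, from 52 and 74 reads and from 49 and 37 reads (log2FC 0.55, limma adjusted p = 0.047), and 407 of its 810 bases overlap the listed gene YKR033C. GZF3 was lowest, with 52.8 and 55.5 RPKM in *PUF3Δ*, against 120.04 and 124 RPKM in WT (log2FC -1.16 ± 0.08, SE, limma adjusted p = 3.3e-05). Of 13 amino acid permeases 3 rose (23.1%, against 16.9%) and 1 fell (7.69%, against 27.4%), and 12 had a log2FC above the median of all genes. BAP2 was highest and BAP3 lowest, which both carry branched-chain amino acids. BAP2 had 321 and 319 RPKM in *PUF3Δ*, against 201 and 187 RPKM in WT (log2FC 0.72 ± 0.08, SE, limma adjusted p = 0.00016), and BAP3 had 53.5 and 61.2 RPKM in *PUF3Δ*, against 120.1 and 110.3 RPKM in WT (log2FC -0.996 ± 0.10, SE, limma adjusted p = 0.00012).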

How the data were processed

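The authors mapped reads with SOAP2, allowing up to 2 mismatches, and deposited an RPKM value for each gene of each library. The submitters' processing notes name the R64 build; the version of SOAP2, the strand of counting and the treatment of reads with several hits are not given in the sources used here. RPKM times gene length gave whole reads for 100% of values (within 0.05 reads). Only 6.43% of matched genes had the same start and end in the files and in the R64 annotation, but 97.1%, and all 50 genes described, had the same length, so positions and sequences come from R64 by gene identifier (5984 of 6673 matched). Overlaps with other listed genes touch 6 of the 50. The result of 1 gene is included in the counts but is not reported here.

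The strain difference was fitted on log2(RPKM + 1) by lmFit of limma 3.58.1 (R 4.3.3), moderated by eBayes with trend = TRUE, for genes whose mean RPKM reached 1, with Benjamini-Hochberg adjustment over all genes and no replicate block. The other scalings were median-of-ratios scaling, quantile normalization and a loess correction for length. Alternatives also changed the pseudocount and the filter, left out each library, added a replicate block, and applied limma voom to the recovered reads. Ratios and exact tests were computed in Python 3.11.15, and Spearman correlations with scipy 1.17.1. The genes, the lists and the alternatives were chosen with earlier results of these data known. By rule, per-library values are given for GCN4, *PUF3*, HIS3, the paralog pairs, the lowest and highest gene of each pathway or list, and the genes of highest RPKM; the other per-library values, and HIS2, HIS6, PHA2, TYR1, GCN2, LEU3, LYS14 and YOR302W, were chosen after values were seen.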

Additional observations from a re-analysis of the deposited data

How the results depend on the processing

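The scaling changed many of the calls. Among the 50 genes, 11 of the 22 called lower on the deposited scale were called lower under all 4 scalings. With quantile normalization, median-of-ratios scaling and the length correction, 1869, 1984 and 1763 of all genes were called higher and 2003, 1945 and 2009 lower, against 1108 and 3175 on the deposited scale. Of the 50 genes, 26 were called higher with median-of-ratios scaling, and 14, 12 and 13 were called lower under these 3 scalings. All 17 genes called higher on the deposited scale stayed so under each of them. The median of the 50 genes minus that of all genes was 0.085 with quantile normalization, 0.18 with a pseudocount of 5 and 0.15 without the filter on low values, and it was 0.19 to 0.25 when a library was left out. GCN4 had a log2FC of -0.11 with median-of-ratios scaling and 0.0488 with the length correction. Log2FC changed sign with quantile normalization to 0.0701 for ARG4, 0.20 for ARG5,6, 0.0448 for LYS21, 0.0108 for TRP3, 0.0453 for SER1, 0.0041 for SER3, 0.00033 for ASN1 and 0.0167 for ASN2. With median-of-ratios scaling it changed sign to 0.0495 for ARG4, 0.12 for ARG5,6, 0.20 for LYS12, 0.22 for LYS21, 0.11 for ARO2, 0.0917 for THR1, 0.24 for SER1, 0.02 for SER3, 0.25 for ASN1 and 0.31 for ASN2. With the length correction, with or without the block, it changed sign to 0.0146 for HIS5, 0.0147 for ARG4, 0.26 for LYS12, 0.21 for LYS21, 0.16 for ARO2, 0.17 for THR1, 0.27 for SER1, 0.10 for ASN1 and 0.15 for ASN2. Other pseudocounts and a minimum mean of 10 RPKM changed no call among the 50 genes, and voom gained 1. Why the scalings differ was not tested.

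Leaving out 1 library left 13 to 16 of the 50 genes called higher and 17 to 23 lower, and 826 to 1222 and 2629 to 3147 of all genes. The calls lost were those of ARG4, ILV3, TRP5, ARO2, THR1 and THR4 without *PUF3Δ* replicate 1, the same and TRP3, ARO4 and SER3 without *PUF3Δ* replicate 2, THR4 without WT replicate 1, and ILV3, TRP5 and THR4 without WT replicate 2, and ARO3 had log2FC between -0.0485 and 0.0528. The ASN1 to ASN2 ratio difference was between -0.152 and 0.042. With 2 libraries per strain these fits assume that the lone library varies like the other strain.

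The replicate numbers did not pair the libraries: the deviations of same-numbered libraries had a correlation of -0.014 over 5860 genes. With a replicate block, 16 of the 50 genes were called higher and 22 lower, and 1067 and 3117 of all genes; THR4 was the only call lost. With the block and the length correction together, 1853 of all genes were called higher, 14 of the 50 genes were called lower, and GCN4 had a log2FC of 0.0488. The ASN1 to ASN2 ratio difference was 0.020 between the libraries numbered 1.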
